A study of Mus musculus with 3 samples.

Results

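The actin cytoskeleton genes described here are 45 genes of the macrophage actin machinery, chosen by name and matched to the gene symbols of the count matrices, where each of the 45 was found exactly once among 32285 genes. They comprise the 2 cytoplasmic actins, proteins that bind actin monomers, the Arp2/3 complex, capping and severing proteins, nucleation and elongation factors, coronins, crosslinkers, linkers to the membrane and to adhesions, myosin and tropomyosin chains, and signalling GTPases. The cells were bone marrow derived macrophages (BMDMs) of female C3H/HeN mice aged 6 to 8 weeks, grown with L929-conditioned medium. They were left untreated (Ctrl, with PBS in place of lipoproteins and collected at 4 h) or were given 1 µg/mL of lipoproteins purified from *Borrelia burgdorferi* (*Bb*LP), the spirochete of Lyme disease, for 1 h (LP1) or 4 h (LP4). All cells were lifted from plastic with Accutase before capture, and Ctrl had no 1 h counterpart. Each condition was 1 single-cell 3′ library made from cells of 3 wells pooled before capture, so the conditions were not replicated and could not be tested against each other. The labels and the culture methods describe marrow pooled before culture, while the paper's single-cell methods describe BMDMs of 3 mice treated separately. Which of these holds for the 3 wells is not settled by the sources used here.

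Actin is kept in macrophages as a pool of monomers and as filaments. Thymosins hold monomers back from assembly, profilin delivers them to growing ends, and cofilin takes old filaments apart. The Arp2/3 complex, switched on by WASP and WAVE proteins downstream of Cdc42 and Rac1, starts branches, and capping protein stops the growth of ends. These branched networks drive ruffling, phagocytosis and macropinocytosis, while talin, vinculin, ERM proteins and MARCKS proteins tie filaments to adhesions and to the plasma membrane.

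After filtering, 6071, 5065 and 4670 cells remained in Ctrl, LP1 and LP4, with 35688939, 52475723 and 61402275 unique molecular identifiers (UMIs, 1 per captured RNA molecule). Levels are given as CPM, a gene's UMIs per 1000000 UMIs of its library. A captured molecule gives 1 UMI whatever its length, so levels of different genes compare captured molecules. Whether different genes were captured and counted equally well was not tested. The median cell held 5133, 9343 and 11784 UMIs, and deeper sequencing and more RNA per cell cannot be told apart. All intervals are 95% and cover counting error only. Summed macrophage markers were level (18673, 18090 and 17985 CPM, with 12 of 12 markers seen in every library), whereas neutrophil markers summed to 630, 534 and 857 CPM. The 3 libraries shared between 4 and 10 cell barcodes per pair. Of the 45 members, 44 reached 10 CPM in at least 1 library, the level also asked of all genes. The exception was *Fscn1*, and *Coro1b* passed in Ctrl and LP1 and stood at 9.82 CPM in LP4.

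The members as a whole made up 3.62%, 4.06% and 4.02% of all UMIs in Ctrl, LP1 and LP4. In cells thinned to 2000 UMIs the share had medians of 3.50%, 3.95% and 3.90%, and from the 10th to the 90th percentile of cells it ran from 2.25% to 5.00%, 2.60% to 5.55% and 2.80% to 5.30% (122, 13 and 45 shallower cells were left out). Behind this small difference in the share stood large and opposite ones between members. *Tmsb4x* alone went from 9105 CPM in Ctrl to 13688 in LP1 and 14406 in LP4. The members together went from 36247 to 40602 and 40150 CPM, a smaller difference than that of *Tmsb4x* alone. Without *Tmsb4x* the summed level of the members was thus lower in LP1 and in LP4 than in Ctrl. At 1 h, 2 of the 44 members were at least 1.5-fold higher than in Ctrl (*Pfn1* and *Tmsb4x*), against a background of 4.23% of 8103 genes, and 0 were at least 1.5-fold lower, against 2.83%. At 4 h, 10 members were at least 1.5-fold higher than in Ctrl (22.7%, background 20.0%) and 8 were lower (18.2%, background 23.1%). Between LP4 and LP1, 7 members were higher (background 16.3%) and 5 were lower (background 18.5%). These shares of members lay near those of all genes. The median log2 ratio of the members was 0.10 for LP1 over Ctrl, 0.16 for LP4 over Ctrl and 0.02 for LP4 over LP1, and that of all genes was −0.02, −0.08 and −0.07.

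The split into higher and lower members depended on how libraries were scaled. TMM and median-of-ratios scaling raised every log2 ratio of LP4 over Ctrl by 0.17 and 0.21, and gave 14 members higher and 2 lower (*Was* and *Tln1*) in place of 10 and 8. Of all genes, 26.31% and 27.61% were then higher, in place of 20.0%. Lower were 16.35% and 15.07% of all genes, in place of 23.1%. Taken relative to the median of all genes, which no scaling moves, 11 members were higher and the same 8 lower at 4 h, and 30 of the 44 members lay above that median. By this measure 22.74% of all genes were higher and 19.83% lower. In macrophage-like cells alone, without the neutrophil-like and other clusters, the same 10 members were higher and the same 8 lower at 4 h. Of all genes, 20.55% were higher and 24.66% lower in these cells.

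**Figure D1:**
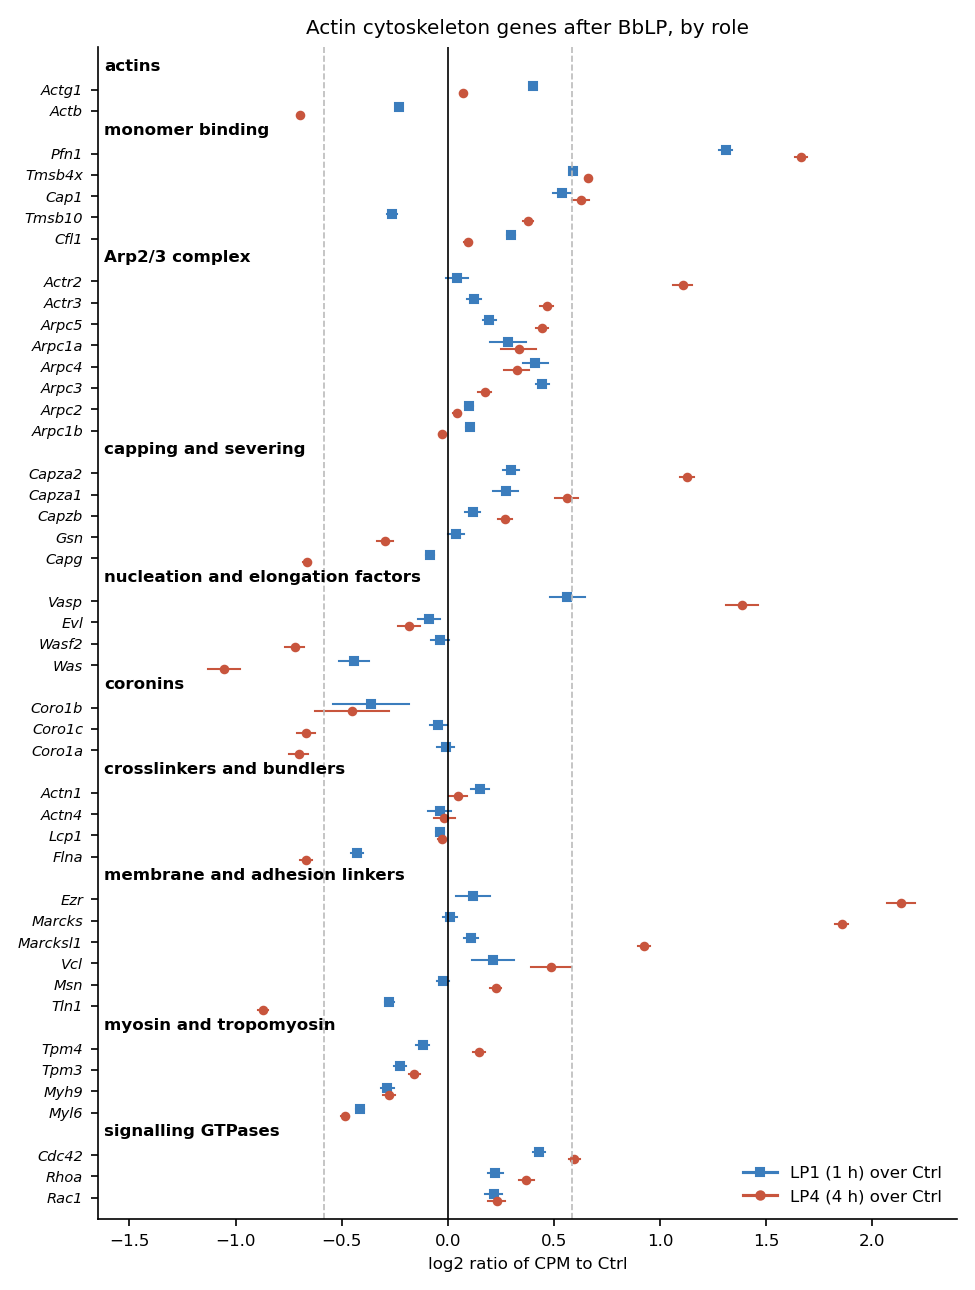
Log2 ratio of CPM to Ctrl for the 44 members with at least 10 CPM, grouped by role, at 1 h (squares) and 4 h (circles); bars are 95% counting intervals and dashed lines mark 1.5-fold. *Pfn1*, *Tmsb4x*, *Cap1* and *Vasp* were already near or past 1.5-fold at 1 h, whereas *Ezr*, *Marcks*, *Actr2* and *Capza2* passed it at 4 h.

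The 2 actins parted from each other. Here and for the genes that follow, series of 3 values are in the order Ctrl, LP1 and LP4. *Actb*, β-actin (chr5:142903115-142906754, mm10), measured 9232, 7872 and 5702 CPM in Ctrl, LP1 and LP4. Its log2 ratio to Ctrl was −0.23 at 1 h (interval −0.24 to −0.22) and −0.70 at 4 h (−0.70 to −0.69), a 1.62-fold lower level. It went from the 5th to the 13th highest gene of the library. *Actg1*, γ-actin (chr11:120345690-120348542), measured 1709, 2260 and 1797 CPM, highest at 1 h (log2 ratio 0.40, 0.39 to 0.42) and back within 0.07 of Ctrl at 4 h. The share of *Actb* in the UMIs of both actins was therefore 84.4%, 77.7% and 76.0% in the 3 libraries, a measure that does not depend on library scaling. Per cell, *Actb* gave 54.3, 81.6 and 75.0 UMIs on average and *Actg1* 10.0, 23.4 and 23.6, since cells of the treated libraries held more UMIs. The 2 transcripts have alike coding sequences, and how reads that match both were counted is not given in the sources used here.

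Actin genes are textbook targets of serum response factor, which binds the CArG box. RefSeq promoters (GRCm38.p6, 250 bases before to 50 after the start) were given for 41 of the 45 members, and 4 of these 41 held a CArG box on either strand (9.76%), against 1.81% of 27025 genes with a promoter. *Actb*, *Marcks*, *Rac1* and *Coro1b* had no entry and were not searched. The 4 with a CArG box are shown with the bases around the match, 5′ to 3′ on the strand of the gene, with the CArG box in capitals.
*Actg1* (chr11:120348551-120348610, minus strand): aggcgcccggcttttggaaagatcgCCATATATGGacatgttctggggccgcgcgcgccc
*Vcl* (chr14:20929148-20929205, plus strand): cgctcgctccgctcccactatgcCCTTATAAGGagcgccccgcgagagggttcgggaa
*Myl6* (chr10:128493025-128493084, minus strand): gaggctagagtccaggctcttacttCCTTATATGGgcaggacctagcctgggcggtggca
*Arpc4* (chr6:113377863-113377897, plus strand): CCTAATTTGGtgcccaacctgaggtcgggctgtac
In *Vcl* the box overlapped a match to the κB site, which 6 of the 41 members held (14.6%, against 9.55% of all genes). The 4 genes did not share a course. At 1 h their log2 ratios to Ctrl were 0.40 (*Actg1*), 0.21 (*Vcl*), −0.42 (*Myl6*) and 0.41 (*Arpc4*), and at 4 h 0.07, 0.49, −0.49 and 0.33.

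The genes for monomer-binding proteins held the earliest differences. *Pfn1*, profilin (chr11:70651850-70654644), measured 321, 796 and 1020 CPM. Its log2 ratio to Ctrl was 1.31 at 1 h (1.28 to 1.34) and 1.67 at 4 h (1.64 to 1.69), or 2.48-fold and 3.17-fold. At 1 h only 21 of the 8103 genes had a higher ratio, while at 4 h 352 did. *Tmsb4x*, thymosin β4 (chrX:167207093-167209315), measured 9105, 13688 and 14406 CPM, so that it passed *Actb* in both treated libraries. Its log2 ratio was 0.59 (0.58 to 0.59) at 1 h, hardly above the 1.5-fold line of 0.58, and 0.66 (0.66 to 0.67) at 4 h. *Cap1*, which recycles monomers with cofilin, measured 195, 283 and 301 CPM (log2 ratio 0.54, then 0.63 at 0.59 to 0.67). Most of the difference of these 3 genes at 4 h was thus already there at 1 h.

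The other 2 monomer binders took other courses. *Tmsb10*, thymosin β10, measured 706, 588 and 917 CPM, lower than Ctrl at 1 h (log2 ratio −0.26, −0.29 to −0.24) and higher at 4 h (0.38, 0.36 to 0.40). LP4 exceeded LP1 by 1.56-fold, and the share of *Tmsb10* in thymosin UMIs was 7.19%, 4.12% and 5.99%. *Cfl1*, cofilin, measured 831, 1022 and 888 CPM and stayed within 1.5-fold. Set against the actins within each library, which needs no scaling, the thymosins gave 0.897, 1.41 and 2.04 UMIs per actin UMI. *Pfn1* gave 0.0294, 0.0786 and 0.136 UMIs per actin UMI, and its ratio to *Cfl1* was 0.387, 0.779 and 1.15. All monomer binders together equalled the actins in Ctrl (1.02 UMIs per actin UMI) and outnumbered them in LP1 (1.62) and LP4 (2.34).

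**Figure D2:**
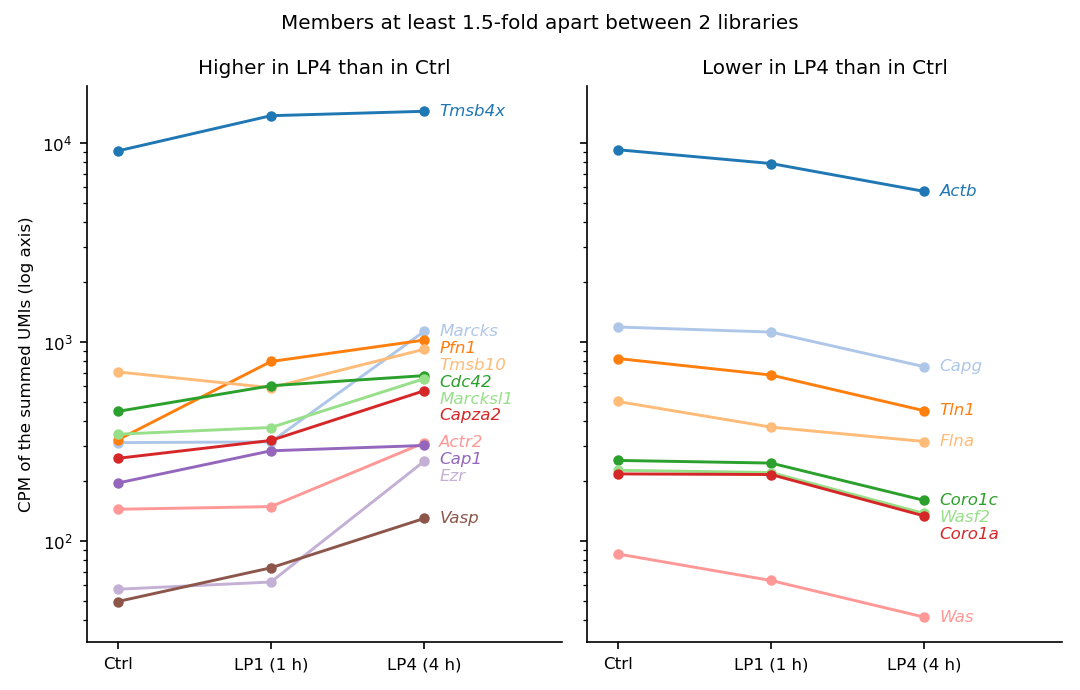
CPM in each library (log axis) of the members at least 1.5-fold apart between 2 libraries, split by whether LP4 was higher or lower than Ctrl; each point is 1 library. *Tmsb4x* and *Actb* stood together in Ctrl (9105 and 9232 CPM) and apart in LP4 (14406 and 5702 CPM).

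Among the 8 members that encode subunits of the Arp2/3 complex, which holds its subunits in equal number, levels were unequal and moved unequally. *Actr2*, which encodes Arp2, measured 144, 149 and 310.3 CPM, with a log2 ratio of 0.04 (−0.01 to 0.10) at 1 h and 1.11 (1.06 to 1.15) at 4 h. It was the single 1 of these 8 past 1.5-fold in any pair. *Arpc5l*, a subunit gene outside the members, was at 48.6, 62.7 and 39.5 CPM, 1.59-fold lower in LP4 than in LP1. *Actr3*, which encodes Arp3, measured 358, 390.4 and 495 CPM (log2 ratio 0.47 at 4 h, 0.44 to 0.50), so that the ratio of *Actr2* to *Actr3* UMIs was 0.402, 0.380 and 0.627. The remaining 6 ranged from −0.03 (*Arpc1b*) to 0.44 (*Arpc5*) at 4 h. *Arpc3* (354, 482 and 399 CPM) and *Arpc4* (97.2, 129 and 122 CPM) were highest at 1 h, with log2 ratios of 0.45 and 0.41. Of the 2 alternative Arpc1 subunits, *Arpc1b* (1160, 1246 and 1140 CPM) gave all but 4.11%, 4.63% and 5.21% of the UMIs, the rest being *Arpc1a* (49.7, 60.5 and 62.7 CPM).

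Capping and severing genes parted by kind of protein. The 3 subunits of capping protein, which closes the barbed end, were higher at both times. *Capza2* measured 259.6, 319 and 567 CPM, with a log2 ratio of 0.30 at 1 h and 1.13 (1.09 to 1.16) at 4 h. *Capza1* measured 105, 127 and 155 CPM (log2 ratio 0.56 at 4 h) and *Capzb*, the β subunit, 318, 345 and 383 CPM (0.27). The share of *Capza2* among α subunits was 71.2%, 71.5% and 78.5%. Both gelsolin-family members were lower at 4 h. *Capg*, a macrophage capping protein that does not sever, measured 1187, 1119 and 750.0 CPM, with a log2 ratio of −0.08 at 1 h and −0.66 (−0.68 to −0.64) at 4 h. *Gsn*, gelsolin, measured 271, 278 and 221 CPM (log2 ratio −0.30 at 4 h, −0.33 to −0.26), within 1.5-fold.

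Among the 4 nucleation and elongation members, *Vasp* was higher at 4 h, *Evl* was level, and *Was* and *Wasf2* were lower. *Vasp*, which speeds elongation at barbed ends, measured 49.5, 73.1 and 129 CPM, with log2 ratios of 0.56 (0.48 to 0.64) and 1.39 (1.31 to 1.46). Its relative *Evl* measured 143, 135 and 126 CPM and stayed within 1.5-fold. *Vasp* therefore gave 25.7%, 35.2% and 50.7% of the UMIs of this pair. *Was*, the hematopoietic activator of Arp2/3, measured 85.9, 63.2 and 41.3 CPM, with log2 ratios of −0.44 (−0.51 to −0.37) and −1.05 (−1.13 to −0.98), the lowest ratio of any member. *Wasf2*, the WAVE2 subunit, measured 226, 220.4 and 137 CPM, within 0.04 of Ctrl on the log2 scale at 1 h and −0.72 (−0.76 to −0.68) at 4 h. These 2 activators of the Arp2/3 complex were lower at 4 h, when the 8 subunit members lay between −0.03 and 1.11. Of 14 WASP, WAVE and Arp2/3 partner genes outside the members, 3 were above Ctrl at 4 h and 11 below, beside 4386 of 8103 genes below. Their median log2 ratio was −0.32, and 3 were at least 1.5-fold higher and 3 lower (21.4% each, against 20.0% and 23.1% of all genes). *Whamm*, a WASP-family gene, was the highest, at 8.94, 9.49 and 36.1 CPM (log2 ratio 2.01 at 4 h). *Jmy* was the lowest, at 11.8, 12.4 and 6.04 CPM (−0.97). *Wasl*, which encodes N-WASP, stood at 46.1, 56.8 and 38.6 CPM (−0.26).

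Of the type I coronins, which bind filaments and Arp2/3, *Coro1a* measured 217, 215 and 133 CPM (log2 ratio −0.70 at 4 h, −0.75 to −0.66). *Coro1c* measured 253, 246 and 159.6 CPM (−0.67, −0.71 to −0.63). Each was level at 1 h and at 4 h was 1.63-fold (*Coro1a*) and 1.59-fold (*Coro1c*) lower, and the share of *Coro1a* in the family was 44.8%, 45.7% and 44.0%. *Coro1b* was low throughout, at 13.4, 10.4 and 9.82 CPM. It is also 1 of 6 members that overlap another gene on the same strand in GENCODE vM21, in its case *Ptprcap*.

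Crosslinkers were mostly level. *Flna*, filamin A, measured 501, 373 and 315 CPM, with log2 ratios of −0.43 (−0.46 to −0.40) and −0.67 (−0.70 to −0.64). *Lcp1*, the leukocyte plastin, measured 1070, 1044 and 1050 CPM and differed by at most 0.04 on the log2 scale. The α-actinins *Actn1* (199, 221 and 206 CPM) and *Actn4* (139, 135 and 138 CPM) were also within 1.5-fold, with *Actn1* giving 58.8%, 62.0% and 59.9% of their UMIs. *Fscn1*, fascin, which bundles filaments in filopodia and in dendritic cells, was nearly absent, with 7, 19 and 27 UMIs, and its log2 ratio of LP4 over Ctrl of 1.16 had an interval of −0.07 to 2.61.

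The linkers of filaments to the membrane held the largest differences of all members, and they appeared between 1 h and 4 h. *Ezr*, ezrin (chr17:6738041-6782784), measured 57.1, 62.0 and 251 CPM, with log2 ratios to Ctrl of 0.12 (0.04 to 0.20) at 1 h and 2.14 (2.07 to 2.20) at 4 h, a 4.39-fold difference that 212 of 8103 genes exceeded. *Marcks*, which ties actin to membrane lipids and is released by protein kinase C (chr10:37133375-37138920), measured 311, 314 and 1128 CPM. Its log2 ratios were 0.01 (−0.02 to 0.05) and 1.86 (1.83 to 1.88). Its relative *Marcksl1* measured 343, 371 and 652 CPM, with 0.11 and 0.93 (0.90 to 0.95). The share of *Marcks* in the UMIs of this pair was 47.6%, 45.8% and 63.4%. *Msn*, moesin, the main ERM gene of these cells, measured 451, 445 and 527 CPM and stayed within 1.5-fold, so that *Ezr* gave 11.2%, 12.2% and 32.2% of the UMIs of this pair. The remaining ERM gene, *Rdx* (radixin), which is not a member, measured 97.4, 89.3 and 116 CPM.

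The promoter of *Ezr* was the only 1 of the 41 with an AP-1 site (TGAGTCA on either strand), which 5.95% of all genes held. The match began 32 bases before the start and overlapped no other motif searched, and it is shown in capitals on the strand of the gene.
*Ezr* (chr17:6782781-6782837, minus strand): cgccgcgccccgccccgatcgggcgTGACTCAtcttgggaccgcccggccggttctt
A match of letters describes the sequence and not the binding of a factor.

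Integrin-linked adhesion genes differed from the membrane linkers and from each other. *Tln1*, talin, which activates integrins, measured 824, 681 and 450.5 CPM, with log2 ratios of −0.28 (−0.30 to −0.25) at 1 h and −0.87 (−0.90 to −0.85) at 4 h. *Vcl*, vinculin, which binds talin, measured 37.0, 42.8 and 51.8 CPM (0.21, then 0.49 at 0.39 to 0.58). The 4 motor and tropomyosin members all lay within 1.5-fold. *Myl6*, a myosin light chain, was the furthest, at 1178, 884 and 842 CPM (log2 ratio −0.49 at 4 h, −0.50 to −0.47). *Tpm3* (536, 458 and 480.0 CPM) and *Tpm4* (421, 388 and 466 CPM) drew closer, with *Tpm4* at 44.0%, 45.9% and 49.3% of their UMIs. *Tpm1*, a tropomyosin gene outside the members, had log2 ratios of −0.15 at 1 h and −0.94 (−0.99 to −0.88) at 4 h. It was thus 1.91-fold lower in LP4 than in Ctrl. Of the signalling GTPases, *Cdc42* measured 447, 602 and 676 CPM, with log2 ratios of 0.43 (0.40 to 0.46) and 0.60 (0.57 to 0.62), while *Rac1* and *Rhoa* stood at 0.23 and 0.37 at 4 h.

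**Figure D3:**
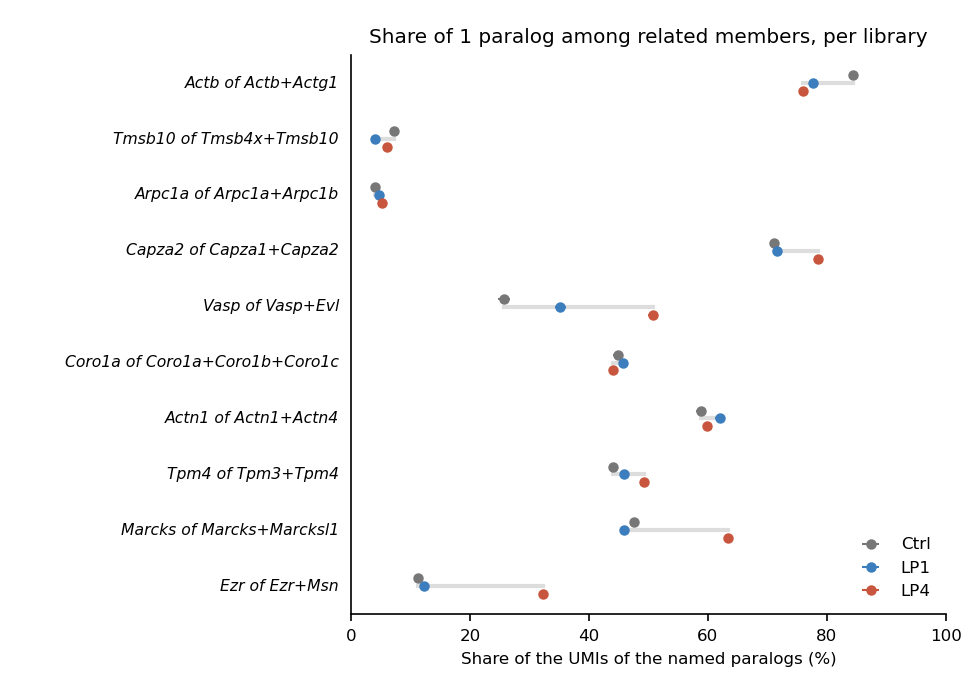
Share of 1 paralog in the UMIs of the related members named beside it (%), 1 point per library with 95% binomial intervals, which are narrower than most points. Between Ctrl and LP4 the share differed by at least 5 percentage points in 6 of 10 such groups of members, from 25.7% to 50.7% for *Vasp* beside *Evl* and from 11.2% to 32.2% for *Ezr* beside *Msn*, and by less in the coronins, thymosins, Arpc1 subunits and α-actinins.

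Whether these differences lay in 1 kind of cell was asked in clusters built without the member genes. Genes at least 1.5-fold apart in CPM between libraries were also left out of the clustering. Clusters A, B and C, with 4843, 4674 and 3152 cells, were macrophage-like. D (1715 cells), led by *Mgll*, *Eef1a2* and *Cd200*, was left unnamed, E (987) was cycling-like and F (192) dendritic cell-like. In these 6 clusters, each with at least 50 cells per library, 32 of 44 members had the same sign of the LP4 to Ctrl ratio throughout, 20 higher and 12 lower, and 25 did for LP1 over Ctrl. The like share of all genes was not computed, so whether these counts are particular to the members was not tested. *Pfn1* was 1.15 to 1.36 higher on the log2 scale in every cluster at 1 h. At 4 h *Marcks* lay between 1.52 in F and 1.98 in B, and *Vasp* between 1.20 in F and 1.47 in E. *Ezr* ran from 1.47 in D to 2.71 in A. *Was* ran from −0.88 in D to −1.72 in F, and *Coro1a* from −0.55 in C to −1.55 in F. F held the fewest cells of the 6 clusters (71, 59 and 62 in Ctrl, LP1 and LP4), so that its ratios rest on fewer UMIs. The finer clusters within A differed between Ctrl and LP4, as given below. For the ratios in A, a difference in the same kind of cell and a change in which cells A held cannot be told apart.

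**Figure D4:**
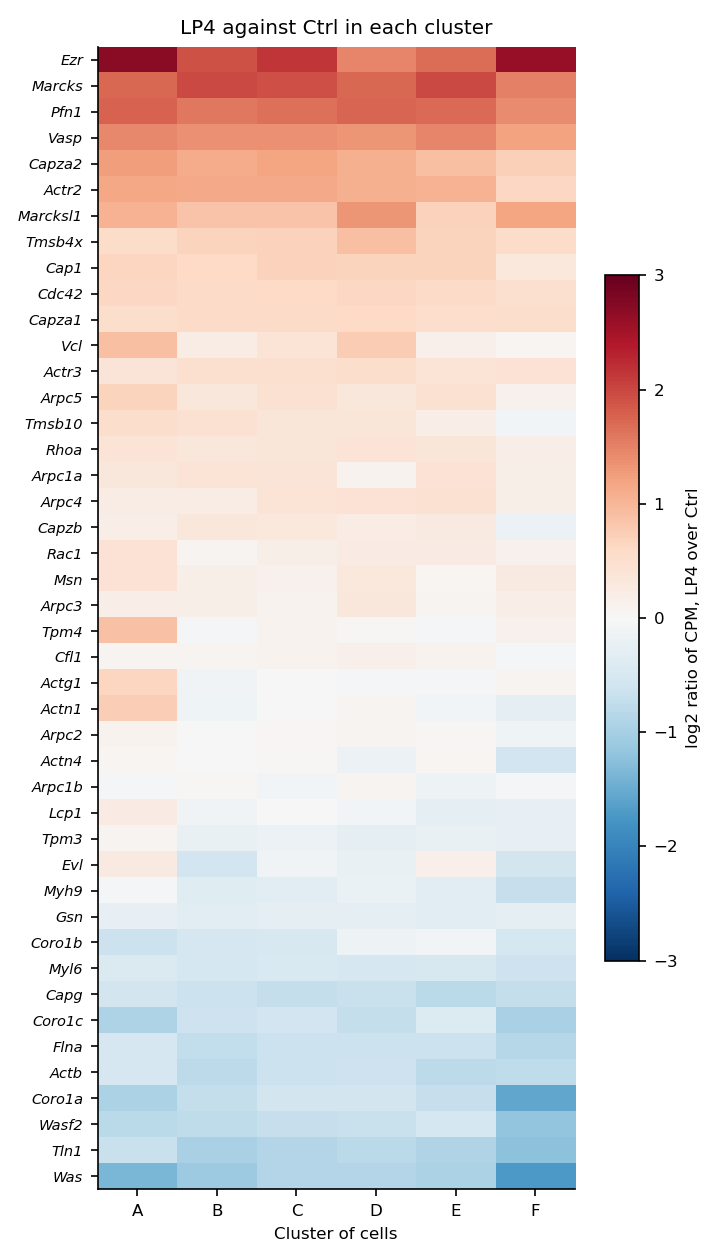
Log2 ratio of LP4 over Ctrl of each member (rows, in order of the library ratio) within each of the 6 compared clusters (columns); red is higher and blue lower in LP4. In all 6 columns 20 rows are red and 12 are blue, while *Tpm4*, *Actg1* and *Actn1* are red mainly in cluster A, which held different finer clusters in Ctrl and LP4.

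Clusters A and B, the largest, were compared within each library after their levels were seen. Of the 44 members, 31 had a lower level in A than in B in Ctrl, 13 of them by at least 1.5-fold (29.5%), against 13.7% of all genes. The share of all genes lower in A by any amount was not computed. For the shares of all genes in A against B, 1 CPM was added to each level, which was not done for the members. *Actb* was at 5835 CPM in A and 10664 in B, and *Actg1* at 1077 and 1956. *Actn1* was at 76.1 and 266 CPM, *Tpm4* at 221 and 506, *Vcl* at 20.7 and 46.5, and *Evl* at 79.1 and 168. At 1 h 12 members were at least 1.5-fold lower in A (27.3%, against 12.4% of all genes). At 4 h 5 were (11.4%, against 10.7% of all genes: *Actn1*, *Tmsb10*, *Flna*, *Capg* and *Tln1*), with *Actb* just short of it at 4105 and 6141 CPM. The gap of 35 of the 44 members was smaller than in Ctrl (79.5%, against 59.7% of all genes). *Actg1* narrowed to 1688 and 1812 CPM, *Tpm4* to 404 and 488, and *Actn1* to 126 and 242. *Ezr* went the other way, from 55.2 and 54.9 CPM in Ctrl to 362 and 207 in LP4. Cells of A held fewer UMIs than the median of their library (0.758 of it, against 0.958 in B), and the part of this in the gaps was not tested. Cluster A also did not hold the same finer clusters in each library. At a Leiden resolution of 0.8, a cluster led by *Egr3*, *Slc9a9* and *Cd86* took 82.1% of the Ctrl cells of A, 81.9% of the LP1 cells and 10.7% of the LP4 cells, and another led by *Gbp4*, *Cxcl5* and *F13a1* took 3.96%, 3.36% and 70.1%. Smaller gaps in the same kind of cell and a change in which cells A held cannot be told apart here.

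**Figure D5:**
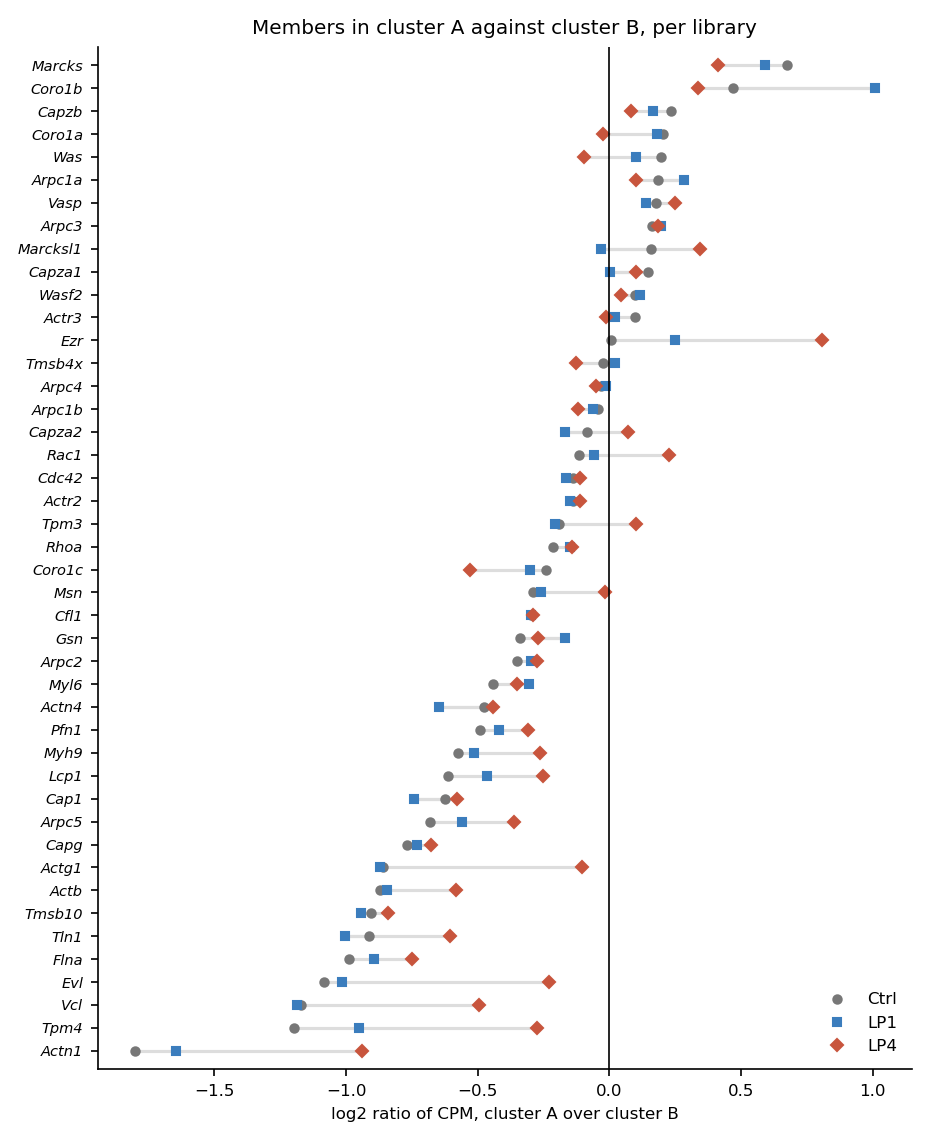
Log2 ratio of CPM in cluster A over cluster B for each member (rows, in order of the Ctrl ratio) in Ctrl (circles), LP1 (squares) and LP4 (diamonds). The lower rows, from *Actn1* at −1.80 in Ctrl to *Capg* at −0.77, move towards 0 at 4 h (−0.94 and −0.68), and *Ezr* moves away from it.

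The members' levels also marked the rarer cells. The neutrophil-like cluster H, with 32, 25 and 29 cells, had *Coro1a* at 478, 774 and 656 CPM, above the 217, 215 and 133 CPM of the whole libraries, on 50, 109 and 167 UMIs. In H *Vasp* was at 105, 234 and 428 CPM and *Marcksl1* at 86.1, 128 and 601 CPM, on as few as 9 UMIs. *Capg* was at 124, 114 and 74.7 CPM there, beside 1187, 1119 and 750.0 CPM in the whole libraries, and *Evl* gave 0, 7 and 5 UMIs, where a limit of 3 counts for the 0 comes to 28.7 CPM. *Fscn1* UMIs came mainly from the dendritic cell-like cluster F (2, 14 and 10) and the stromal-like cluster I (4, 3 and 16 UMIs in 23, 20 and 21 cells).

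Of 131 other genes of actin regulation, listed with earlier results of these data known, 104 reached 10 CPM. At 1 h 2 were at least 1.5-fold higher than in Ctrl (1.92%, against 4.23% of all genes) and 0 lower (against 2.83%). At 4 h 16 were higher (15.4%, against 20.0% of all genes) and 26 lower (25%, against 23.1%). The share that was lower at 4 h thus lay near that of all genes. The median log2 ratio of these 104 genes at 4 h was −0.20, beside −0.08 for all genes. The largest differences were higher in *Rnd1* (1.18, 1.22 and 66.6 CPM), and in the formin *Fmnl2* (46.7, 51.8 and 758 CPM, log2 ratio 4.02). *Myl12a*, *Washc4* and *Diaph2* were higher by 1.34, 1.17 and 1.03 on the log2 scale, *Myl12a* already by 0.91 at 1 h. Lower were *Mtss1* (241, 247 and 52.2 CPM) and the GTPase regulators *Dock2* (710.1, 644 and 181 CPM), *Dock10* (1095, 1232 and 359.8 CPM), *Vav3* (589, 561 and 181 CPM), *Arhgap15* (239, 202 and 56.5 CPM) and *Arhgap45* (63.5, 50.1 and 22.2 CPM). *Dock2*, *Dock10* and *Vav3* are exchange factors that switch on Rac or Cdc42. *Rac2*, the Rac gene of blood cells, measured 197, 172 and 136 CPM. Its log2 ratio at 4 h was −0.54 (−0.58 to −0.49), within 1.5-fold. *Rac1* was higher than in Ctrl by 0.23 on the log2 scale, also within 1.5-fold, and *Cdc42* by 0.60, or 1.51-fold.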

How the data were processed

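BMDMs of 3 conditions (Ctrl, LP1 and LP4) were profiled as 1 droplet-based 3′ single-cell library each. The authors made the deposited UMI counts per gene and barcode with Cell Ranger on mouse mm10, and the file headers give version 7.1.0. Whether intronic reads were counted is not given in the sources used here. Barcodes with over 500 UMIs, over 500 genes and under 5% mitochondrial UMIs were kept, which removed 52, 54 and 369 of 6123, 5119 and 5039. UMIs were summed over kept cells and scaled to CPM. Intervals are exact Poisson for a level, exact conditional binomial for a ratio and exact (Clopper-Pearson) binomial for a share. Members with at least 100 CPM in a library had half-widths of at most 3.21% of the level, and the others of at most 9.06%. With 1 library per condition no p-value was computed, and cells were not treated as replicates. The computation of ratios was tested on simulated data.

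The members and the other gene lists were chosen with earlier results of these data known. Named with values are both actins, members at least 1.5-fold apart in any pair of libraries, the member furthest from Ctrl in each role, family members whose shares are described, and up to 6 other actin genes in each direction that were at least 2-fold apart with at least 50 CPM. *Rdx*, *Arpc5l*, *Whamm*, *Jmy*, *Wasl*, *Tpm1* and *Rac2*, which the rule did not name, were added after their values were seen. Clusters were made with scanpy 1.11.5 from 2000 variable genes without the listed actin genes, centred within each library (30 principal components, 20 neighbours, Leiden resolution 0.5), and were named from fixed markers. The variable genes were picked among 5154 genes whose CPM differed by less than 1.5-fold between libraries, without mitochondrial and ribosomal genes. Scrublet called 0%, 0.0197% and 0.0214% of cells doublets and so marked too few to use, and cells with the highest scores were left out as an alternative. Alternatives changed the cell filter, the scaling (TMM with edgeR 4.0.16), the depth and the cells counted. Promoters came from RefSeq (GRCm38.p6) and were searched for the CArG box, the κB site and TGAGTCA on both strands. Gene positions and overlaps came from GENCODE vM21.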

Additional observations from a re-analysis of the deposited data

How the results depend on the processing

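No paired analysis was possible because the wells of each condition were pooled into 1 library. Of 113 values of counts, medians and cluster or family tallies recomputed under alternatives, 22 moved. A count or tally was called moved only when over 1.5-fold from the main one, so that 14 higher members in place of 10 did not count as moved. A median was called moved when outside the median counting interval of the members. Of 1336 other values, mostly log2 ratios of single members, 429 moved, which for a ratio means out of its counting interval. The largest moves were those of *Coro1b* after thinning, by 0.27 on the log2 scale for LP4 over Ctrl and 0.31 for LP4 over LP1. The counts of members at least 1.5-fold apart were most open to scaling. For LP1 over Ctrl the 2 higher members became 4 under TMM and under median-of-ratios scaling (5.63% and 5.71% of all genes). Since *Tmsb4x* lay at the 1.5-fold line, only 1 was left in CPM without mitochondrial and ribosomal protein genes (4.13% of all genes). The same held as a mean over cells (4.34%) and after thinning cells to 2000 UMIs (4.70%). At 2-fold 1 member was higher, as were 62 of 8103 genes. For LP4 over Ctrl the 8 lower members became 2 under both scalings (16.35% and 15.07% of all genes), and 2-fold left 6 higher and 1 lower. At 2-fold 851 of 8103 genes were higher and 806 lower. In CPM without mitochondrial and ribosomal protein genes 9 members were higher (19.19% of all genes), with *Cdc42* falling below 1.5-fold. For LP4 over LP1 the 5 lower members became 2 under TMM (14.85% of all genes) and 0 under median-of-ratios scaling (13.76%). They became 2 relative to the median of all genes (15.69%), a setting added after seeing the data, as was counting *Fscn1*. At 2-fold 3 members were higher and 0 lower, beside 696 and 628 of 8103 genes. Under TMM and median-of-ratios scaling the median log2 ratio of the members was 0.17 and 0.18 at 1 h and 0.33 and 0.37 at 4 h, each against Ctrl, and 0.12 and 0.15 between LP4 and LP1. Thinning put the first at 0.057. No member past 1.5-fold changed sign under any alternative run, which for the 2 scalings follows from a shift of all log2 ratios alike that is smaller than 1.5-fold. Members near Ctrl did, among them *Arpc1b*, *Evl*, *Lcp1*, *Actn4* and *Tpm3* for LP4 over Ctrl under median-of-ratios scaling. Paralog shares do not depend on scaling, and 6 of 10 groups of paralogs stood at least 5 percentage points apart with all barcodes and with macrophage-like clusters alone as well. Deposited barcodes without a filter and a 10% mitochondrial limit moved the log2 ratio of a member by at most 0.0234. Leiden resolutions of 0.3 and 0.8 gave 4 and 9 compared clusters, with 36 and 30 of 44 members of 1 sign for LP4 over Ctrl. Counts of few UMIs limit *Fscn1*, *Coro1b* and the clusters under 50 cells per library.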
